A study of Mus musculus with 16 samples.

Results

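The comparison described here set 4 libraries of osteoblast cells (OB) against 4 libraries of mesenchymal stem cells (MSC), all from wild-type mice. They were 8 of the 16 libraries of a study of the microRNA locus miR-9-1 in mouse. The other 8 came from miR-9-1-deficient mice made with CRISPR/Cas9 genome editing and were used here as a separate set of libraries. Cells were sorted, lysed in TRIzol, and messenger RNA was selected by its poly(A) tail before sequencing. Each library carried an animal number, and the 4 numbers of the MSC libraries were those of the OB libraries, so the libraries were paired by that number. The wild-type mice are called A to D and the deficient mice E to H. The labels give no sort gate, tissue source, sex or age, and do not say whether animals were pooled. Of 20056 gene symbols in the table, 14696 reached a normalized count of 10 in 4 libraries of the 8 or in more of them, and were tested. A normalized count is a gene's read count divided by 1 scaling factor for its library.

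Mesenchymal stem cells of bone and marrow are stromal progenitors that can form bone, cartilage and fat cells, and those around marrow vessels secrete factors on which blood stem cells and lymphocyte precursors depend. Osteoblasts are their bone-forming descendants. They lay down type I collagen and other matrix proteins that are then mineralized, under transcription factors such as Runx2 and osterix (Sp7). Marrow and bone surfaces also hold blood progenitors, granulocytes, erythroid cells, vessels and cartilage, whose RNA can enter a sorted fraction.

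Sequencing depth was 12175127 to 13281093 recovered reads per wild-type MSC library and 16153319 to 18962771 per OB library. A count of 0 allows up to 3 reads at 95% confidence, equal to a normalized count of 3.88 to 4.51 for an MSC library and of 1.95 to 2.36 for an OB library, by counting error only. Sex-linked transcripts set the libraries apart from their labels. MSC library A held the Y-linked gene Ddx3y at 2396 and the X-inactivation transcript Xist at 291, whereas MSC libraries B, C and D held Ddx3y at 29.8 to 78.1 and Xist at 11937 to 13464. All 4 OB libraries held both, with Xist at 4652, 7838, 7070 and 6745 and Ddx3y at 1167, 649, 717 and 662 in mice A to D. Each OB library thus held the X-inactivation transcript and a Y-linked transcript together, whereas each MSC library held mainly 1 of them. Neither the independence of the 4 OB libraries nor that an OB library came from the same mouse as the MSC library of its number is established. Mouse A to D below stands for the number on the label, and a value shared by both kinds of library under 1 letter is a match of numbers. The p-values measure the spread between these samples only. MSC library D stood apart on the second principal component, which held 7.71% of the variance, while the first, with 74.3%, separated MSC from OB libraries.

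The 2 kinds of library differed in most genes. Of the 14696 genes tested, 10216 (69.5%) passed at an adjusted p under 0.05 in limma with the mouse as a block, 5031 (34.2%) higher in OBs and 5185 (35.3%) lower. Of the passing genes 49.2% were higher, against 67.5% when reads were scaled by library total, which moved the median of all genes by 0.49 (log2), and 56.2% with quantile normalization, which moved it by 0.16. Log2 fold changes are on the scale of log2(normalized count + 1) and are relative to the deposited scaling. These shares are the background for every list below. The 4 MSC and 4 OB values did not overlap in 65.5% of all genes tested (32.6% with OBs higher, 32.9% with OBs lower). Large differences were mostly decreases: 746 passing genes (5.08%) were at least 4-fold higher in OB libraries and 2099 (14.3%) at least 4-fold lower. Among genes with a mean of 1000 or more in the higher kind of library, 1 of 1825 was at least 16-fold higher in OBs and 50 of 1848 were at least 16-fold lower. In bulk libraries fewer cells of a type and less RNA per cell cannot be told apart.

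**Figure D1:**
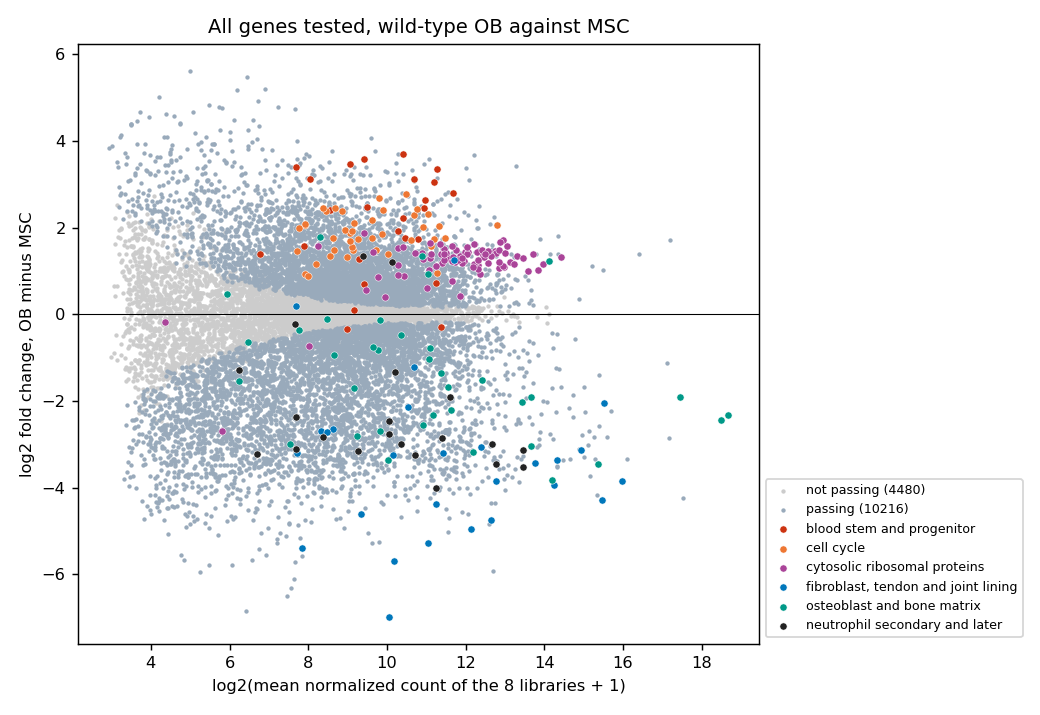
Log2 fold change, OB minus MSC, against the log2 mean normalized count of the 8 wild-type libraries, 1 point per gene tested. Cell cycle and most blood progenitor and ribosomal protein genes lie above 0, most fibroblast, bone matrix and later neutrophil genes lie below it, and the strongest decreases are larger than the strongest increases.

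The marker genes of the label went the other way. The bone matrix list, 36 genes tested, had 4 members higher and 27 lower in OB libraries, with a median log2 fold change of -1.61 against 0.0131 over all genes tested. The list took 9.56 to 11.3% of the reads of an MSC library and 2.18 to 4.00% of those of an OB library. By contrast 23 of 26 blood stem and progenitor genes were higher in OB libraries, with a median of 2.31, and took 0.412 to 0.473% of OB reads against 0.0831 to 0.0991% of MSC reads. The libraries are therefore called OB libraries below, after their label, and no value is attributed to osteoblasts.

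**Figure D2:**
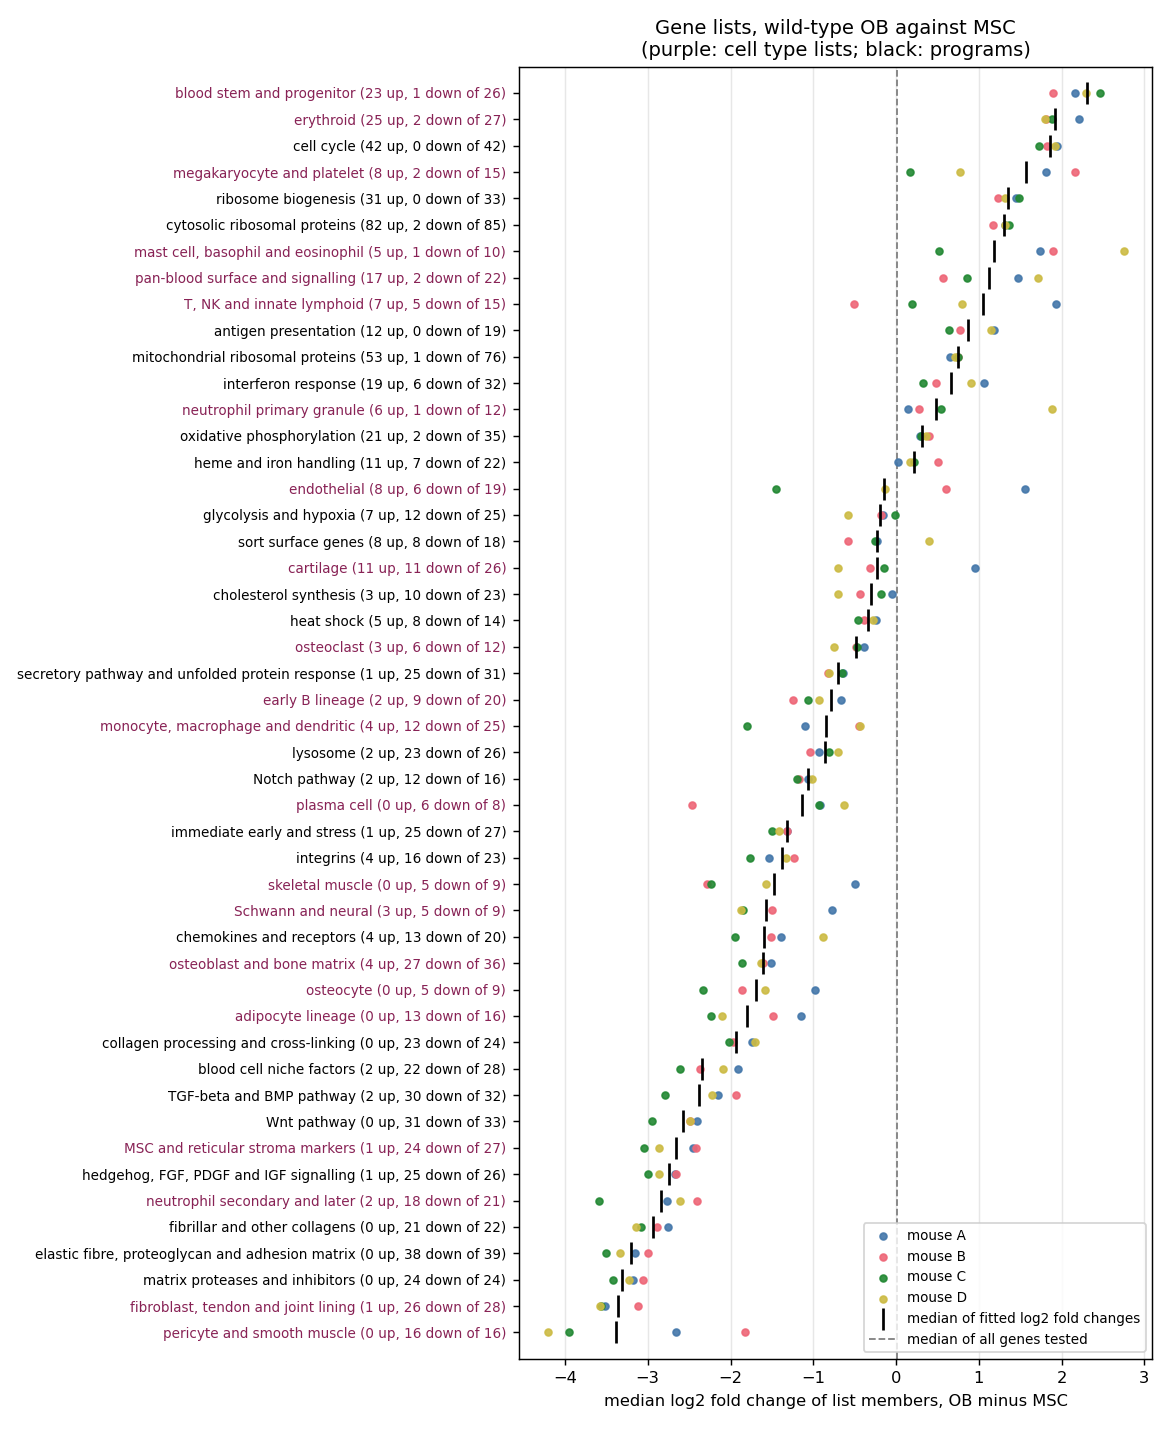
Median log2 fold change, OB minus MSC, of each gene list, with the median of each mouse as a dot, the median of the fitted values as a bar and the number of members that passed in each direction. Fibroblast and matrix protease lists lie at the low end and blood progenitor, erythroid and cell cycle lists at the high end in each of the 4 mice, whereas the pericyte list ran from -4.21 in mouse D to -1.83 in mouse B.

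Stromal identity genes were lower in OB libraries. Of 27 MSC and reticular stroma markers, 24 were lower and 1 higher, with a median of -2.66. Pdgfra (chromosome 5, 75152292 to 75198215, plus strand, GRCm38/mm10, protein-coding), a growth factor receptor of mesenchymal progenitors, had normalized counts of 7339, 5839, 5488 and 4295 in MSC libraries A to D and 417, 486, 289 and 244 in the OB libraries. Every OB library lay below every MSC library (log2 fold change -4.02 ± 0.11 SE, limma adjusted p = 4.76e-09). The leptin receptor Lepr, which marks stroma around marrow sinusoids, had values of 4586, 4924, 6459 and 3163 against 612, 444, 334 and 255 (-3.57 ± 0.18, adjusted p = 1.06e-07), again without overlap. Pdgfrb, the receptor of pericytes and stroma, was lower by a smaller margin (-2.74 ± 0.11). The member that was higher was Eng, the endoglin gene, which blood progenitors and endothelium also express (1.18 ± 0.07).

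The 12 largest decreases included several products of connective tissue and genes of other kinds. Clec3b (chromosome 9, 123150946 to 123157432, plus strand), encoding tetranectin, had 3627, 2425, 1740 and 673 in the MSC libraries and 14.9, 22.8, 15.1 and 5.87 in the OB libraries (-6.97 ± 0.25, adjusted p = 1.41e-08). The groups were separated by more than the spread between libraries of a kind, although mouse D was lowest in both. Dpt (dermatopontin, -5.68 ± 0.14), Tnxb (tenascin-X, -5.91 ± 0.18), Col14a1 (-5.29 ± 0.15) and Col6a6 (-6.31 ± 0.39), all products of loose connective tissue, were also among the 12 largest decreases. Ccl11 (eotaxin, -6.11 ± 0.45), Il33 (an alarmin of stroma, -5.72 ± 0.52), Ly6c1 (-5.39 ± 0.34), Ppl (periplakin, -5.59 ± 0.32), Cyp2f2 (-5.55 ± 0.53), AW551984 (-5.41 ± 0.72) and Siglech (-6.50 ± 0.53) completed that set. Values at or below the counting limit occurred among the OB libraries for Siglech, Col6a6, Ccl11, Il33, Cyp2f2 and AW551984, so those log2 values depend on the pseudocount and are not bounds. Siglech marks plasmacytoid dendritic cells, a blood lineage, and its MSC values ran from 45.8 to 825. Reads of Ly6c1 may be shared with its close paralogue Ly6c2.

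Of 28 fibroblast, tendon and joint-lining genes, 26 were lower and 1 higher, with a median of -3.36. Dcn (decorin, which binds collagen fibrils) had 156007, 140572, 99394 and 85701 in MSC libraries and 8548, 8764, 8141 and 7213 in OB libraries (-3.84 ± 0.11, adjusted p = 4.96e-09). Gsn (gelsolin) was lower too (-4.28 ± 0.11). The member that was higher was Cd34 (1.25 ± 0.16), which is also on the blood progenitor list. All 16 pericyte and smooth muscle genes were lower, with a median of -3.39, but the medians of single mice ran from -4.21 to -1.83. Acta2 (smooth muscle actin) had 10879, 2495, 10236 and 12088 in MSC libraries and 1663, 461, 429 and 674 in OB libraries. Mouse B was low among the MSC libraries, and the groups did not overlap (-3.47 ± 0.31, adjusted p = 5.23e-06). Adipocyte lineage genes had 13 of 16 lower and 0 higher (median -1.80), among them Lpl (lipoprotein lipase, -2.81 ± 0.14) and Mgp (matrix Gla protein, -2.38 ± 0.07).

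Factors with which stroma supports blood cells were lower as a group, with 2 of 28 higher, 22 lower and a median of -2.35. Cxcl12 (chromosome 6, 117168535 to 117181367, plus strand), the chemokine that retains blood progenitors in marrow, had 13374, 10076, 38088 and 11878 in MSC libraries and 4979, 2618, 2661 and 1635 in OB libraries. MSC library C was far above the others, and no OB library reached the lowest MSC library (-2.52 ± 0.31, adjusted p = 5.19e-05). Kitl, the ligand of the Kit receptor, had 885, 842, 2149 and 1183 against 313, 204, 146 and 123 (-2.66 ± 0.33, adjusted p = 5.40e-05). Csf1, a macrophage growth factor, was lower (-2.46 ± 0.09), as was Tnfsf11, which encodes the osteoclast-inducing ligand RANKL (-3.32 ± 0.26). Il7, the cytokine of B-cell precursors, was low throughout, at 45.8 to 75.6 in MSCs and 11.7 to 31.2 in OBs (-1.40 ± 0.44, adjusted p = 0.0171). Il7 did not pass without mouse C (adjusted p = 0.0791), without mouse D (adjusted p = 0.0562), with quantile normalization (-0.75, adjusted p = 0.152) or with library totals (-0.92, adjusted p = 0.0841). Igf2 was lower too (-4.01 ± 0.13), and 62.8% of its exon bases lie in the exons of another annotated gene. Against the rest of the list, Angpt1, which encodes a ligand of the Tie2 receptor and is also on the blood progenitor list, had 765, 673, 864 and 1037 in MSC libraries and 5545, 5267, 6304 and 5831 in OB libraries (2.79 ± 0.09, adjusted p = 8.09e-09). Tgfb1 was higher by 0.86 ± 0.07.

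**Figure D3:**
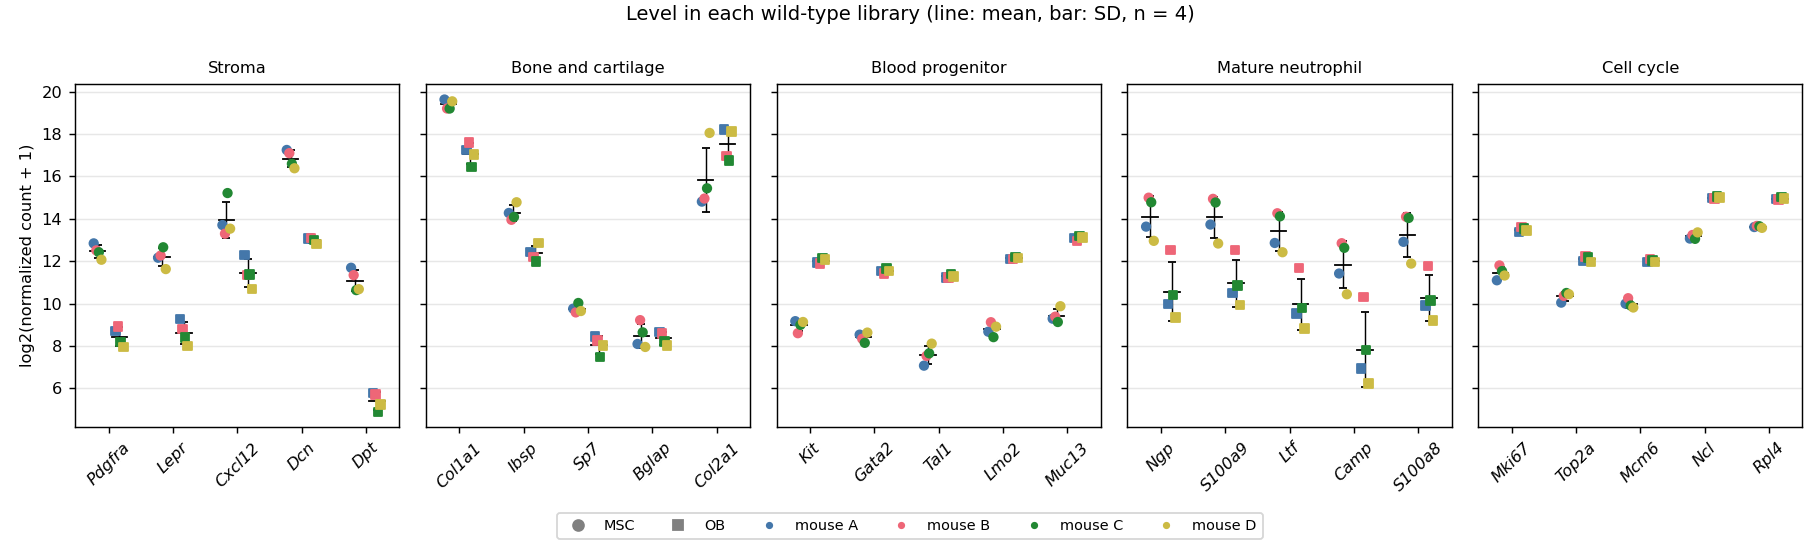
Log2(normalized count + 1) of 25 genes in each of the 8 wild-type libraries. Circles are MSC and squares are OB, coloured by mouse number, with the mean and SD of the 4 libraries of a kind. Blood progenitor and cell cycle genes sit higher and closer together in OB libraries, while later neutrophil genes spread widely among the OB libraries and are highest in mouse B.

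Bone genes were lower to unequal degrees. Col1a1 (chromosome 11, 94936224 to 94953042, plus strand), the main type I collagen chain of bone, had 813054, 605489, 604933 and 765769 in MSC libraries and 156742, 198771, 88879 and 134052 in OB libraries (-2.32 ± 0.19, adjusted p = 2.80e-06). Its groups did not overlap, and with quantile normalization it did not pass (-0.42, adjusted p = 0.0582). Ibsp (bone sialoprotein) had 19841, 15871, 17416 and 28186 against 5552, 4668, 4059 and 7368 (-1.91 ± 0.08, adjusted p = 3.01e-08), with mouse D highest in both kinds of library. Spp1 (osteopontin, -2.03 ± 0.09), Sparc (osteonectin, -1.92 ± 0.12), Alpl (the alkaline phosphatase of mineralization, -1.51 ± 0.13) and the transcription factor Sp7 (-1.70 ± 0.20) were lower as well. Runx2, the master regulator of the lineage, was lower (-0.77 ± 0.10) and did not pass when reads were scaled by library total (-0.27, adjusted p = 0.0501).

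Single genes of mature osteoblasts and osteocytes differed less or did not pass. Bglap, an osteocalcin gene, had 272, 594, 398 and 246 in MSC libraries and 403, 382, 294 and 260 in OB libraries. The groups overlapped (-0.11 ± 0.20, adjusted p = 0.646), and reads may be shared with its near-identical neighbours. Bglap2 was lower (-0.83 ± 0.11, adjusted p = 9.34e-05). Dmp1, a matrix protein of osteocytes, had 153 to 242 in MSC libraries and 111 to 438 in OB libraries (0.48 ± 0.30, adjusted p = 0.174), and passed as higher without mouse C (0.91, adjusted p = 0.00375) and with library totals (0.98, adjusted p = 0.0154). The osteocyte list had a median of -1.69, beside -1.61 for the bone matrix list, and of its 9 genes tested 5 were lower and 0 higher. Sost, Mepe and Fgf23 were below the filter. The members of the bone matrix list that were higher were Car12 (a carbonic anhydrase), Smpd3 (a sphingomyelinase needed for mineralization, 1.33 ± 0.18), Col11a2 (1.23 ± 0.30) and Mef2c (0.93 ± 0.08). The groups overlapped for Car12, Smpd3 and Col11a2, for which MSC library D was the highest MSC library. Smpd3, Col11a2 and Mef2c are also active in cartilage.

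Cartilage genes split into 11 higher and 11 lower of 26. Collagens of hyaline cartilage were higher: Col2a1 (chromosome 15, 97975602 to 98004695, minus strand) had 28777, 31826, 44494 and 272356 in MSC libraries and 303804, 128638, 111103 and 286650 in OB libraries (1.70 ± 0.40, adjusted p = 0.00389). MSC library D lay within the range of the OB libraries, and the other 3 MSC libraries lay below them. Col9a1 (2.25 ± 0.29) and Col9a2 (1.60 ± 0.35) followed the same order over the MSC libraries. Genes of tendon, meniscus and joint surface were lower, namely Comp (-2.24 ± 0.10), Fmod (fibromodulin, -2.84 ± 0.12) and Prg4 (lubricin, -2.04 ± 0.31). The median of the list was -0.23, single mice ran from -0.70 (D) to 0.95 (A), and the median was 0.69 with quantile normalization and 0.26 with library totals.

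Apart from Col11a2 and the collagens of hyaline cartilage, most matrix genes were lower. Of 22 collagens outside the cartilage list, 21 were lower and 0 higher (median -2.93), and together they took 11.6 to 14.1% of MSC reads and 1.87 to 3.64% of OB reads. Col3a1, the fibrillar collagen of soft connective tissue, had 470562, 353771, 299743 and 307734 against 22763, 21595, 14898 and 16806 (-4.23 ± 0.10, adjusted p = 3.61e-09). Elastic fibre, proteoglycan and adhesion matrix genes had 38 of 39 lower, with Fn1 (fibronectin) at -2.86 ± 0.11. Of the enzymes that process collagen, 23 of 24 were lower (median -1.93), including the cross-linking oxidase Lox (-3.14 ± 0.12) and the collagen chaperone Serpinh1 (-2.02 ± 0.13). All 24 matrix proteases and inhibitors were lower, with Mmp2 (a gelatinase) at -3.35 ± 0.09 and its inhibitor Timp2 at -3.50 ± 0.07.

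Signalling genes of mesenchyme followed. In the Wnt list 31 of 33 genes were lower and 0 higher (median -2.58), from the secreted modulators Dkk3 (-4.01 ± 0.10) and Wif1 (-2.20 ± 0.13) to the co-receptor Lrp6 (-1.75 ± 0.09). TGF-beta and BMP genes had 30 of 32 lower and 2 higher (median -2.38), with Tgfb3, a ligand, at -3.55 ± 0.10 and the secreted binding protein Fstl1 at -3.55 ± 0.09. In the hedgehog, FGF, PDGF and IGF list 25 of 26 were lower (median -2.74), among them the secreted binding protein Igfbp5 (-4.17 ± 0.11), and the receptor Igf1r was higher (0.75 ± 0.07). Notch genes had 12 of 16 lower and 2 higher. Of these the ligand Jag2 was higher (80.5, 67.3, 157 and 88.7 in MSC libraries against 583, 458, 686 and 598 in OB libraries, 2.61 ± 0.18), while the ligand Jag1, named for contrast after its values were seen, was lower (-2.80 ± 0.18).

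Genes of blood stem and progenitor cells were higher. Kit (chromosome 5, 75574916 to 75656722, plus strand), the receptor of stem cell factor, had 574, 387, 509 and 559 in MSC libraries and 3911, 3807, 4565 and 4327 in OB libraries (3.04 ± 0.10, adjusted p = 8.50e-09). Tal1 (chromosome 4, 115056426 to 115071755, plus strand), a transcription factor without which no blood forms, had 133, 184, 200 and 275 against 2416, 2387, 2695 and 2497 (3.70 ± 0.15, adjusted p = 2.99e-08). For both genes every OB library was above every MSC library, and the 4 OB values were close together. Its partner Lmo2 (3.36 ± 0.12) and the factor Gata2 (3.12 ± 0.11) were higher by similar amounts. Cd34, which stroma also expresses, was higher by 1.25 ± 0.16. Muc13 (chromosome 16, 33794037 to 33819934, plus strand), a cell surface mucin, had 623, 665, 559 and 938 in MSC libraries and 8740, 7906, 9361 and 8949 in OB libraries (3.67 ± 0.12, adjusted p = 7.97e-09).

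The other genes among the 12 largest increases were of several kinds. Gimap1 (chromosome 6, 48739054 to 48743795, plus strand), a GTPase gene of lymphocytes and blood progenitors, had 55.5, 111, 71.6 and 122 in MSC libraries and 1407, 1239, 1590 and 1555 in OB libraries (4.06 ± 0.21, adjusted p = 1.23e-07). An antisense gene shares 36% of its exon bases, and no source states that strand was counted. Gimap5 (3.69 ± 0.28) is its neighbour and relative. Rab38, a trafficking GTPase, had 165, 149, 162 and 243 against 2289, 2092, 2555 and 2338 (3.70 ± 0.13), and Krt18, a simple-epithelium keratin, 68.0, 82.9, 123 and 222 against 1547, 1345, 1752 and 1506 (3.77 ± 0.24). No OB value came near an MSC value in these genes. Nkx2-3, a homeobox factor (3.79 ± 0.32), Pglyrp2, a peptidoglycan-cleaving enzyme (3.76 ± 0.18), Nwd1 (3.65 ± 0.38), Gbp2b, an interferon-induced GTPase (4.74 ± 0.78), A530088E08Rik (4.78 ± 0.84) and Fam110c (5.20 ± 0.90) completed the set. The last 3 had at least 1 MSC library at 0, so their log2 values depend on the pseudocount.

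Pan-blood genes had 17 of 22 members higher, 2 lower and a median of 1.12. Laptm5, a lysosomal protein gene of blood cells, had 1249, 2198, 1789 and 1225 in MSC libraries and 5921, 6010, 6129 and 5964 in OB libraries (1.94 ± 0.13, adjusted p = 7.97e-07). Ptprc, which encodes CD45, was present in both kinds of library, at 1060, 2519, 1701 and 1074 in MSC libraries and 3112 ± 163 (SD, n = 4) in OB libraries (1.06 ± 0.16, adjusted p = 2.72e-04). MSC libraries thus also held blood cell RNA, with mouse B highest. Of 18 surface genes often used in stromal sorting, 8 were higher and 8 lower. Kit, Pecam1, Itga2b, the integrin of megakaryocytes (2.36 ± 0.19), and Ptprc were higher, and Pdgfra, Pdgfrb and Lepr were lower. Of 23 integrins, 4 were higher and 16 lower (median -1.37). Itga4 (2.28 ± 0.15) and Itga6 (2.22 ± 0.11), carried by blood progenitors, were higher, and Itga11, a collagen receptor of fibroblasts, was lower (-3.65 ± 0.08).

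Erythroid genes were higher in 25 of 27 cases and lower in 2, with a median of 1.92. Hbb-bs, a beta-globin, had 1100, 2148, 1466 and 1357 in MSC libraries and 5098, 5144, 5414 and 5063 in OB libraries (1.81 ± 0.13, adjusted p = 1.30e-06). The alpha-globin Hba-a1 (1.80 ± 0.17), the membrane transporter Slc4a1 (2.33 ± 0.15), carbonic anhydrase Car2 (2.82 ± 0.10) and the erythroid factor Gata1 (2.46 ± 0.28) were higher. Rows of duplicate globin symbols were identical and were counted once. The members that were lower, Aqp1 (a water channel, -2.44 ± 0.17) and Mt2 (a metallothionein, -2.92 ± 0.09), are also expressed outside the lineage, and 73.5% of the exon bases of Mt2 lie in another annotated gene. Megakaryocyte genes had 8 of 15 higher, such as Selp (P-selectin, 3.46 ± 0.13) and Plek (1.54 ± 0.20), and 2 lower, among them Gp1bb (-2.39 ± 0.20), of whose exon bases 91.1% lie in Sept5. The median of this list ran from 0.17 in mouse C to 2.16 in mouse B.

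Granulocyte genes of later stages were mostly lower, and primary granule genes were mixed. Of 12 primary granule genes, which are made in early neutrophil precursors, 6 were higher, 1 was lower and 5 did not pass. The median was 0.48, and single mice ran from 0.14 (A) to 1.89 (D). Plac8 (2.28 ± 0.10), Srgn, the granule proteoglycan core (2.07 ± 0.15), and the protease Prtn3 (1.33 ± 0.21) were higher, and Elane, which encodes neutrophil elastase, was lower (-1.77 ± 0.29). Mpo (myeloperoxidase) had 5544, 5835, 6193 and 1860 in MSC libraries and 4964, 6794, 5356 and 4878 in OB libraries, so the groups overlapped (0.31 ± 0.22, adjusted p = 0.232). It passed as higher with quantile normalization (0.66, adjusted p = 0.0124) and with library totals (0.81, adjusted p = 0.00917). Of 21 genes of the secondary granules and later stages, 18 were lower and 2 higher (median -2.84). Ngp (chromosome 9, 110419747 to 110423012, plus strand), a secondary granule protein, had 12689, 32721, 28153 and 7969 in MSC libraries and 1009, 5868, 1363 and 648 in OB libraries (-3.53 ± 0.23, adjusted p = 6.34e-07). Mouse B was highest and mouse D lowest in both kinds of library, and the groups did not overlap. S100a9 (-3.12 ± 0.19), S100a8 (-2.98 ± 0.20), Ltf (lactoferrin, -3.46 ± 0.21) and Camp (cathelicidin, -4.01 ± 0.30) shared this order of mice at both ends. The members that were higher were the growth factor receptor Csf3r (1.21 ± 0.23) and Padi4 (1.35 ± 0.21).

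Other blood lineages were mixed. Macrophage, monocyte and dendritic genes had 4 of 25 higher and 12 lower. In the osteoclast list 3 of 12 were higher and 6 lower (median -0.48). The list took 0.0852 to 0.101% of MSC reads and 0.104 to 0.123% of OB reads. Ctsk (cathepsin K, -3.52 ± 0.09), which osteoblast-lineage stroma also makes, and Acp5 (-1.23 ± 0.24) were lower. Car2, which is also on the erythroid list, had the largest increase of the osteoclast list (2.82 ± 0.10). Among 20 early B-lineage genes 2 were higher and 9 lower. Rag1, the recombinase gene of lymphocyte precursors, had 105, 76.4, 154 and 119 against 0, 14.3, 0.753 and 9.54 (-4.76 ± 0.78, adjusted p = 3.98e-04). Ebf1 (-3.13 ± 0.17) belongs to both the B lineage and stroma and is on both lists.

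Endothelial genes went both ways, with 8 of 19 higher and 6 lower. Tie1 had 232, 184, 340 and 179 in MSC libraries and 2139, 2067, 2410 and 2119 in OB libraries (3.27 ± 0.13, adjusted p = 3.24e-08), and Pecam1 (2.66 ± 0.14) and Erg (1.77 ± 0.17) were higher too. These 3 genes are also known in blood stem cells. The vessel cadherin Cdh5 had 98.5, 170, 338 and 82.7 against 17.3, 45.5, 37.7 and 22 (-2.33 ± 0.33, adjusted p = 1.57e-04), and Ramp2, of whose exon bases 33.4% lie in Vps25, was lower (-4.44 ± 0.45).

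Proliferation and protein synthesis genes were higher. All 42 cell cycle genes were higher in OB libraries, with a median of 1.86 and medians of single mice from 1.72 to 1.95. Mki67, the marker of cycling cells, had 2192, 3564, 2963 and 2564 in MSC libraries and 10681, 12478, 11905 and 11138 in OB libraries (2.05 ± 0.09, adjusted p = 3.69e-08). Top2a (chromosome 11, 98992943 to 99024189, minus strand), the topoisomerase of mitosis, had 1055, 1317, 1446 and 1389 against 4126, 4788, 4612 and 4001 (1.76 ± 0.09, adjusted p = 1.13e-07), and the replicative helicase subunit Mcm6 was higher by 2.03 ± 0.08. Neither Mki67 nor Top2a overlapped between the groups. Of 85 cytosolic ribosomal proteins, 82 were higher and 2 lower (median 1.31), and they took 4.49 to 4.91% of OB reads against 1.29 to 1.47% of MSC reads. Rpl4 had 12522, 12982, 12843 and 12191 in MSC libraries and 31117, 30920, 33201 and 31907 in OB libraries (1.33 ± 0.07, adjusted p = 1.70e-07). The members that were lower were Rpl39l, a paralogue of restricted expression, and Rps4l, which is annotated as a transcribed processed pseudogene. Many ribosomal protein genes have processed pseudogenes that can share their reads. Ribosome assembly factors had 31 of 33 higher and 0 lower (median 1.35), among them nucleolin, Ncl (1.81 ± 0.08), and nucleophosmin, Npm1 (1.51 ± 0.06). Mitochondrial ribosomal proteins had 53 of 76 higher (median 0.75), and oxidative phosphorylation subunits 21 of 35 (median 0.31).

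Immediate early genes, which respond within minutes to stimulation or tissue dissociation, were lower in 25 of 27 cases and higher in 1, with a median of -1.32. Fos (chromosome 12, 85473890 to 85477273, plus strand) had 76990, 72089, 78375 and 66743 in MSC libraries and 13605, 12732, 11356 and 11425 in OB libraries (-2.58 ± 0.08, adjusted p = 7.49e-09). Egr1, a zinc finger factor, was lower (-1.69 ± 0.08), and Egr3 was higher (0.46 ± 0.11). Egr1 did not pass with quantile normalization (-0.21, adjusted p = 0.0691). Heat shock genes had 5 of 14 higher and 8 lower. Constitutive chaperones such as Hsp90ab1 (1.12 ± 0.08) and Hspa8 (0.26 ± 0.07) were higher, and the inducible Hspa1b (-2.27 ± 0.09) and Bag3 (-1.65 ± 0.07) were lower. Secretory pathway and unfolded protein response genes had 25 of 31 lower (median -0.70), with the disulfide isomerase P4hb at -0.89 ± 0.07. Their share of reads overlapped, at 0.847 to 0.955% in MSC libraries and 0.831 to 0.876% in OB libraries. The chaperone Hspa5 was lower (-0.46 ± 0.07) and reversed under quantile normalization (0.87). Of 26 lysosomal genes, 23 were lower (median -0.86), including prosaposin, Psap (-1.58 ± 0.07), and cathepsin B, Ctsb (-1.87 ± 0.09).

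Antigen presentation genes had 12 of 19 higher and 0 lower (median 0.87). The class I gene H2-K1 had 5631, 8316, 9141 and 5437 in MSC libraries and 23202, 22013, 24423 and 23067 in OB libraries (1.74 ± 0.13, adjusted p = 1.27e-06), and its partner B2m was higher by 0.89 ± 0.10. Reads of class I genes may be divided among paralogues. Interferon-response genes had 19 of 32 higher and 6 lower (median 0.66). Of 20 chemokines and receptors, 4 were higher and 13 lower, and the receptor of Cxcl12, Cxcr4, was higher (752, 1164, 1183 and 718 in MSC libraries against 2891, 2891, 3129 and 2938 in OB libraries, 1.67 ± 0.13), as was the chemokine Ccl9 (2.72 ± 0.15).

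The lists differed in how much the 4 libraries of a kind varied. It is not established that the OB libraries came from separate mice, so their spread is given as one between libraries. In OB libraries the median coefficient of variation between libraries was 7.48% for blood progenitor genes and 7.20% for cell cycle genes. It was 7.68% for all genes tested with a mean of 100 or more. Bone matrix genes had 27.1%, cartilage genes 46.0% and later neutrophil genes 66.2%. Counting error alone would give 1.88%, 2.85%, 3.55%, 2.55%, 1.48% and 3.72%. In MSC libraries blood progenitor genes had 21.4%, bone matrix genes 23.3%, cartilage genes 56.0%, later neutrophil genes 56.5% and all genes 15.3%. Blood progenitor genes were thus more alike among OB libraries than among MSC libraries, as was the median gene. Bone, cartilage and later neutrophil genes varied several-fold more than the median gene among OB libraries. The wide spread of cartilage and later neutrophil genes was shared by the MSC libraries.

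**Figure D4:**
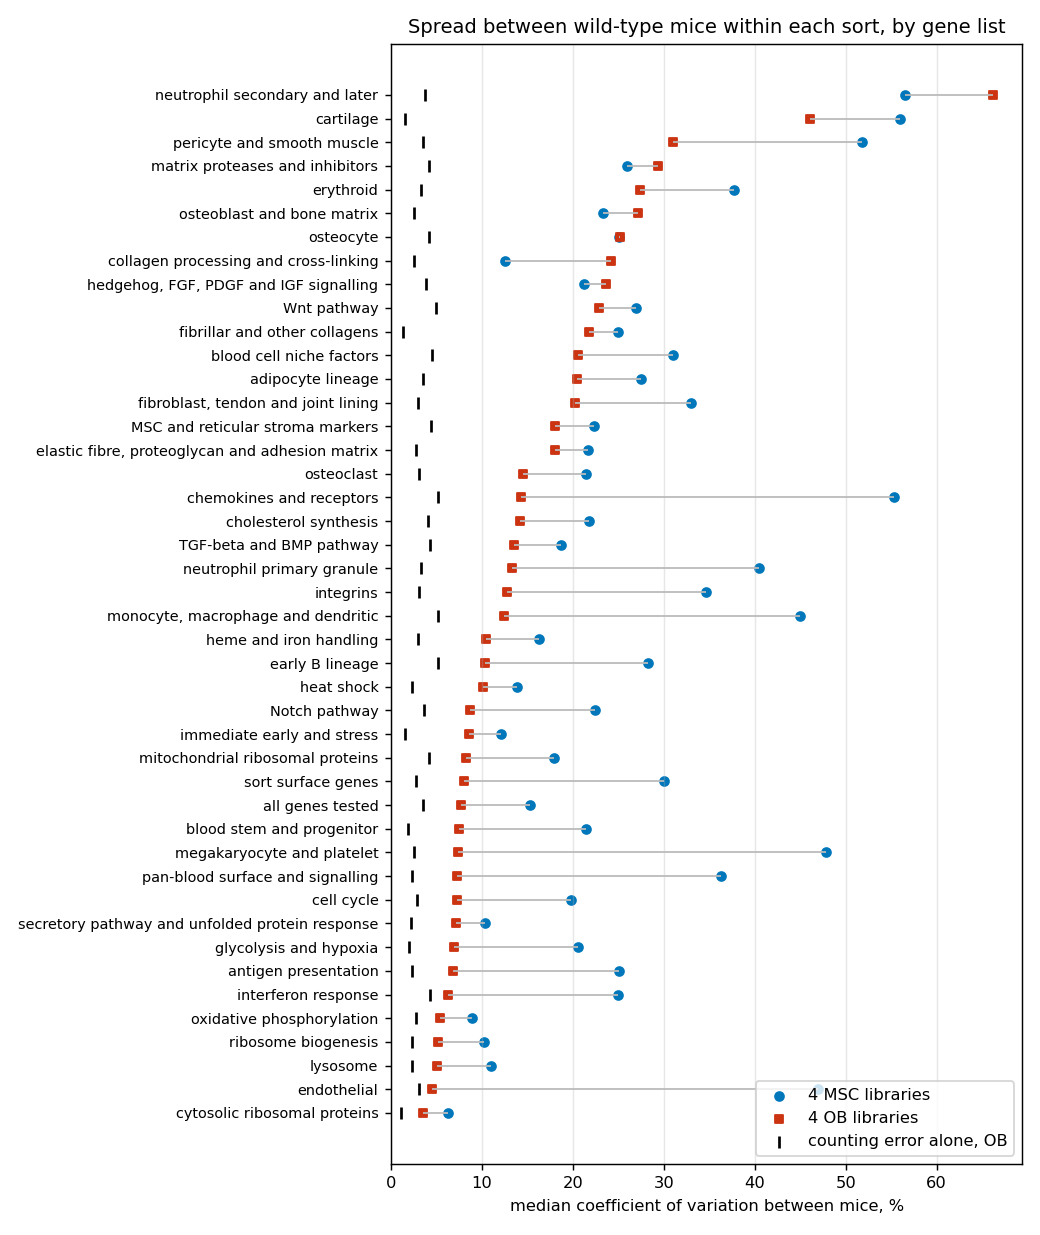
Median coefficient of variation between the 4 wild-type libraries of a kind, for the members of each list with a mean of 100 or more. Circles are MSC libraries, squares are OB libraries, and bars are the part that counting error gives in OB libraries. It is not established that the OB libraries came from separate mice. Later neutrophil genes (66.2%) and cartilage genes (46.0%) lie at the wide end among OB libraries, and they vary widely among MSC libraries too (56.5% and 56.0%). Blood progenitor (7.48%) and cell cycle genes (7.20%) lie close to all genes tested (7.68%) among OB libraries.

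Short stretches of promoter are shown for genes of the cell cycle, blood progenitor, erythroid, pan-blood and bone matrix groups, since members of a group moved together. They come from RefSeq (GRCm38.p6), where 10864 of the 14696 genes tested matched a window of 300 bases around the start. Capitals mark the motif found, on either strand, and a match is a description of the letters only. CCAAT stood in 75.8% of the 33 cell cycle promoters matched and in 38.1% of those of all genes tested, and Top2a held 6, of which 4 are shown. AGATAA, which GATA factors bind, stood in 31.6% of 19 erythroid promoters, in 13.2% of 530 promoters of genes at least 4-fold higher in OB libraries, in 6.51% of 1474 of those at least 4-fold lower and in 6.43% of all genes tested. It stood in 1 of 21 blood progenitor promoters (4.76%), that of Tal1, so the Tal1 stretch below is not typical of its group. TGTGGTT, the Runx motif, stood in 3 of 23 bone matrix promoters, against 3.70% of all genes tested. AGATAA also stood in 3 of these 23 promoters and CCAAT in 12 of them, although most bone matrix genes were lower in OB libraries. AGATAA and CCAAT were thus not particular to the lists that were higher in OB libraries. GAGGAAG, which PU.1 binds, stood in 18.7% of the promoters of genes at least 4-fold higher against 13.7% of all genes tested. It differs in letters from CCGGAAG, the ETS motif, which stood in 39.7% of 63 ribosomal protein promoters and in 16.7% of all genes tested.
Top2a, chr11:99024399-99024428, minus strand: tggaccttcctcATTGGtcagattttctgt
Top2a, chr11:99024361-99024390, minus strand: ccaacaattgctATTGGtccattttgaaga
Top2a, chr11:99024321-99024350, minus strand: ttcttttacctaATTGGtttattcgaaaag
Top2a, chr11:99024250-99024279, minus strand: ctgcaaacagagCCAATgagagcgagtcgg
Tal1, chr4:115056209-115056238, plus strand: ctatagagtcttTTATCTttgagcaattcc
Hbb-bs, chr7:103828121-103828150, minus strand: tgttctctgcacAGATAAggacaaacatta
Laptm5, chr4:130913266-130913295, plus strand: gcagcctgtggCTTCCTCttttttgttctg
Spp1, chr5:104434971-104435000, plus strand: tttttttttttAACCACAaaaccagaggag

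The same comparison in miR-9-1-deficient mice, which shares no library with the wild-type one, gave 8978 of 14692 genes (61.1%) passing, 29.3% higher in OBs and 31.8% lower. Of the 10052 wild-type calls tested there, 96.7% had the same sign, 78.7% had the same sign and passed, and 12 passed in the opposite direction. Across the 14351 genes tested in both, the log2 fold changes had a Pearson r of 0.924 and a Spearman rho of 0.921. Genes are not independent replicates, and these are descriptions. Each deficient OB library also held both sex-linked transcripts, with Xist at 3720, 3974, 8053 and 7430 in E to H. Ddx3y stood at 1939, 1185, 716 and 817 in the same libraries. Deficient MSC libraries E and F held mainly Ddx3y, and G and H mainly Xist. The independence and the mouse of origin of the deficient OB libraries are therefore not established either. Clec3b (-6.73), Pdgfra (-3.53), Kit (3.14), Tal1 (3.02), Mki67 (2.67) and Ngp (-3.71) passed in deficient mice with the sign they had in wild-type mice. Tal1 was 3.70 ± 0.15 in wild-type and 3.02 ± 0.13 in deficient mice. Mki67 was 2.05 ± 0.09 in wild-type and 2.67 ± 0.15 in deficient mice. Cxcl12 (-0.95, adjusted p = 0.107), Kitl (-1.30, adjusted p = 0.0580) and Il7 (-0.093, adjusted p = 0.895) did not pass there. Smpd3 and Acp5, which passed in wild-type mice, had the opposite sign and did not pass there, with Smpd3 at -0.86 (adjusted p = 0.0613) and Acp5 at 0.37 (adjusted p = 0.250). Mpo, which did not pass in wild-type mice with the deposited scaling, was higher in OB libraries of deficient mice (1.44, adjusted p = 0.00181).

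**Figure D5:**
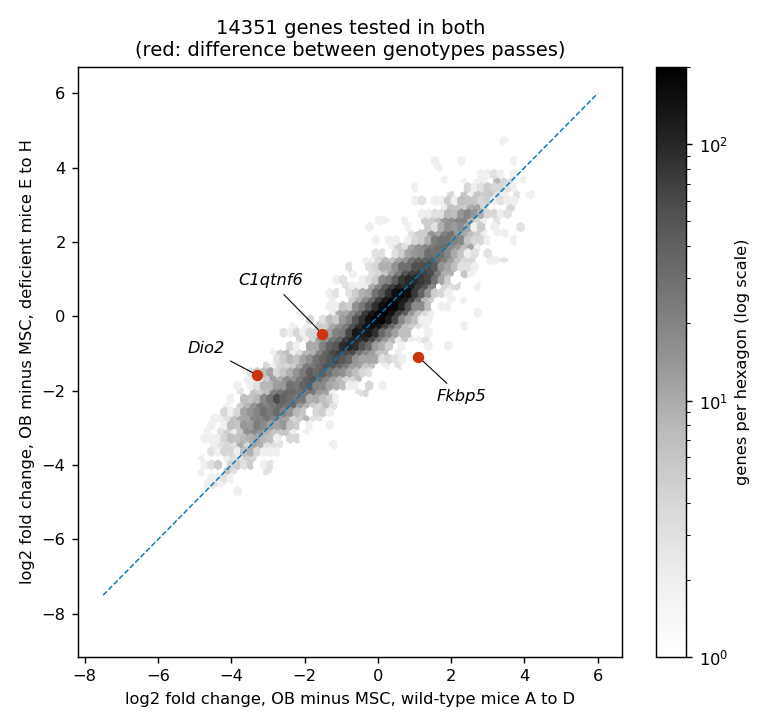
Log2 fold change, OB minus MSC, in deficient mice against that in wild-type mice for 14351 genes, shaded by the number of genes per hexagon on a log scale, with the line of equality dashed. Most genes lie near the line, and the 3 genes in red passed the test of the difference.

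The difference between genotypes itself passed in 3 of 15556 genes (0.0193%), with 2209 at an unadjusted p under 0.05, and the count is unstable. None of the genes named above with unlike values in the genotypes was among the 3. Dio2 (chromosome 12, 90724552 to 90738438, minus strand), which encodes the enzyme that activates thyroid hormone, had 4768, 5608, 4207 and 3867 in wild-type MSC libraries and 549, 653, 411 and 309 in wild-type OB libraries. In deficient mice E to H it had 1106, 1931, 536 and 529 in MSC libraries and 353, 495, 249 and 176 in OB libraries. The decrease was smaller in deficient mice (difference 1.73 ± 0.20, limma adjusted p = 0.0225), and MSC libraries of deficient mice held less than any wild-type MSC library. Fkbp5, a glucocorticoid-induced co-chaperone, was higher in wild-type OB libraries (1.10 ± 0.13) and lower in deficient ones (-1.09 ± 0.23), with a difference of -2.19 ± 0.29 (adjusted p = 0.0475) and deficient MSC values of 8135, 1616, 1914 and 3935. C1qtnf6 differed by 1.05 ± 0.14 (adjusted p = 0.0486), from -1.52 ± 0.08 in wild-type to -0.46 ± 0.13 in deficient mice. Leaving out any 1 of mice A, B, C, D, E, G or H gave 0 passing genes, leaving out mouse F gave 149, and edgeR gave 1.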

How the data were processed

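RNA-seq of poly(A)-selected RNA was analysed from 8 wild-type libraries (4 MSC, 4 OB), with 8 miR-9-1-deficient libraries as a separate set. The authors deposited normalized counts per gene symbol (a signal per gene, not raw reads). The submitters' processing notes list DESeq2 (version 1.24.0) and mm10, with no role stated. Aligner, counting, annotation and strand setting were not given in the sources used here. Each deposited signal column was whole multiples of 1 step within 0.01 reads, so whole reads were recovered (100% of values), and limma was run on log2(normalized count + 1), since this scale is the unit deposited.

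Genes that reached 10 in 4 or more libraries were fitted with limma 3.58.1 in R 4.3.3 (linear model, empirical Bayes with trend) and the mouse as a fixed block, and p-values were Benjamini-Hochberg adjusted over all genes tested, with a threshold of 0.05. Values after ± are standard errors of log2 fold changes. In a simulation of the wild-type comparison on 14696 genes, 63.7% of 2-fold and 88.5% of 4-fold changes passed and 10.2% of calls were false, above the threshold of 0.05. The simulation changed only a small set of genes, drew no differences between mice and scaled by library totals. Its shares therefore do not carry over to the data, in which most genes passed. The libraries were paired because the titles give both kinds the same animal numbers, although the sex-linked transcripts leave it unestablished that a number names 1 mouse in both. Deviations of same-numbered libraries correlated with r from 0.0385 to 0.138 in wild-type and 0.0587 to 0.320 in deficient mice. Differently numbered pairs ran from -0.169 to 0.0753 and from -0.258 to 0.0641, so the ranges overlapped. Of the 4 wild-type MSC libraries, 3 correlated best with the OB library of their number.

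The members, gene lists and tests were chosen with earlier results of these data known. List symbols missing from the table were matched through RefSeq synonyms. Genes were named by a rule: the 12 largest passing changes per direction whose higher group averaged 200 or more without overlap, up to 3 passing members per list and direction, genes fixed by name, sex-linked genes, and genes passing the difference between genotypes. Some list members are left out for length, and some results are not reported here. Jag1, Car12, Rn45s, Krt5 and Krt14 lie outside the rule and were chosen after their values were seen. Alternatives were no replicate block, a pseudocount of 5, quantile normalization, a filter of 50 or none, library totals, equal read numbers, all 16 libraries, edgeR 4.0.16 and DESeq2 1.42.0 on recovered reads, a minimum log2 fold change of 1 and leaving out each mouse. Counting identical rows once was added after seeing the data. Coordinates are GENCODE vM21 on GRCm38/mm10, and promoter windows are RefSeq.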

Additional observations from a re-analysis of the deposited data

Results flagged for a closer look

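Of 392 groups of 4 libraries examined, 37 had a library whose gap to the nearest other exceeded Dixon's 95% critical value. Chance flags about 1 in 20 of independent groups. The 37 cannot be set against that rate, since related genes moved together and some genes were chosen after their values were seen. MSC library D was high in the cartilage genes Col2a1 (272356), Col9a1 (5801) and Col9a2 (9203) and in Col11a2 (28523), Smpd3 (2242) and Car12 (242) of the bone matrix list. The same library was high in Igf2 (12332), Wif1 (8874) and the ribosomal RNA precursor Rn45s (449637, against 112511 to 144405 in the other 3) and low in Mpo (1860), Csf1 (1629) and the primary granule list (mean log2 level 8.28 against 9.83 to 10.1). MSC library C was high in Cxcl12 (38088) and in the integrin list (mean log2 level 9.98). It also held the epidermal keratins Krt5 at 1350 and Krt14 at 613, against 0 for Krt5 and 0 to 2.78 for Krt14 in the other MSC libraries. MSC library B was high in Mgp (29266), Hspa5 (26389) and heat shock genes (mean log2 level 11.4) and low in Fmod (60602). MSC library A was high in Ctsk (7632) and Ddx3y (2396) and low in Xist (291).

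Among OB libraries, B was high in the later neutrophil genes Ngp (5868), Ltf (3259) and Camp (1261), in Aqp1 (3122), and in the early B-lineage list (mean log2 level 5.54) and the heme and iron list (9.94). It held Krt5 at 4.55, where the other 3 held 0. OB library A was high in Ddx3y (1167), Ccl11 (14.9) and Tgfb3 (519) and low in Itga4 (3788). OB library C was high in Hsp90ab1 (53952). OB library D was low in Tnxb (104) and held Rpl39l at 4.40.

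The difference of OB and MSC libraries differed between wild-type and deficient mice, by the test of the difference, for Dio2 (1.73), C1qtnf6 (1.05) and Fkbp5 (-2.19).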

How the results depend on the processing

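The wild-type count of 10216 passing genes ranged from 9282 to 9623 without 1 mouse and from 9336 to 11095 over the other settings that kept the threshold alone, and was 6039 with a minimum absolute log2 fold change of 1. Without the replicate block 10271 genes passed, holding 98.1% of the blocked calls, and Ddx3y was the named gene whose call the block decided (adjusted p = 0.0558 without it). The count for deficient mice ranged from 7012 to 8538 without 1 mouse, against 8978. The difference between genotypes gave 3 genes, 2 without the replicate block (0 of them shared with the 3), 1 in edgeR and 0 to 149 without 1 mouse.

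Signs reversed in these cases, and the cause was not tested. With quantile normalization Hspa5 was 0.87, Rn45s 0.28, and the medians of cartilage 0.69, endothelial 0.50 and glycolysis genes 0.17. With library totals Hspa5 was 0.0397, and the medians were 0.26 for cartilage, 0.33 for endothelial, 0.0133 for osteoclast, 0.27 for sort surface, 0.16 for heat shock, 0.30 for glycolysis and 0.19 for cholesterol synthesis genes. With a filter of 50 the endothelial median was 1.79, as fewer genes were tested. Without 1 mouse, Xist ranged from -0.81 (without A) to 0.85, and list medians from -0.43 to 0.0497 (without D) for cartilage, from -0.54 to 0.30 (without D, and 0.29 without C) for endothelial and from -0.25 to 0.00596 (without D) for glycolysis genes. Calls of named genes were lost in 13 cases and gained in 4 among 2042 gene settings. Prg4 was lost with quantile normalization (adjusted p = 0.0680), Rps4l with library totals (adjusted p = 0.198), Bglap2 with all 16 libraries (adjusted p = 0.221) and Ddx3y without mouse C (adjusted p = 0.0510). Genes near the counting limit cannot be given a reliable fold.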
